A study of Mus musculus with 20 samples.

Results

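A set of 5 genes of mouse chromosome 7 was described: Oscar, Eps8l1, Cacng6, Gm15494 and Arhgap33os. They were selected on the measured values themselves, as genes in the neighbourhood of Apoe whose estimated counts differed between hAPOE4 and hAPOE3 mice in the same direction in males and in females, so their genotype differences are given as a description without a test. These are 5 of the 33119 genes in the deposited table and 5 of the 21724 genes that passed the expression filter, which all 5 genes passed.

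RNA was measured in the hippocampus of 20 mice of 16 months, labelled C57BL/6. They formed 4 groups of 5, with mice S154 to S158 being males with hAPOE3 and S174 to S178 males with hAPOE4, and with S144 to S148 being females with hAPOE3 and S164 to S168 females with hAPOE4. All 20 were homozygous targeted replacement mice, which carry human APOE3 or APOE4 in place of the mouse coding sequence, so each group lacks mouse Apoe protein and no wild-type mice were compared. Total counts per mouse ran from 35778879 to 52520279.

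Apoe encodes the main lipid carrier of the brain, made largely by astrocytes. Genes that lie near a replaced gene on the chromosome are inherited with it more often than distant genes. The homozygous hAPOE3 and hAPOE4 mice came from a supplier, and how they were bred is not given in the sources used here. The APOE allele, the chromosome 7 DNA linked to it and any other difference between the hAPOE3 and hAPOE4 mice cannot be told apart in this design.

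Positions are those of GRCm38, chromosome 7, in the GENCODE M21 annotation. Apoe lies on the minus strand from 19696109 to 19699188. Cacng6 lies from 3424195 to 3435667 on the plus strand, 16.3 Mb below the Apoe start. Oscar lies from 3609813 to 3616157 on the minus strand, 16.1 Mb below. Gm15494 (4445697 to 4471285, minus strand) and Eps8l1 (4460674 to 4480487, plus strand) overlap over 10612 bases, 15.3 and 15.2 Mb below. Arhgap33os is the only one of the 5 genes on the other side of Apoe, from 30515122 to 30522193 on the plus strand, 10.8 Mb above. Oscar, Eps8l1 and Cacng6 are annotated as protein coding, and Gm15494 and Arhgap33os as antisense transcripts.

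RefSeq start sites of GRCm38.p6 were found for 4 of the 5 genes, all but Gm15494. The 300 bases around the start are shown because these are the stretches at which RefSeq places the start of transcription. They are chr7:3616108-3616407 on the minus strand for Oscar and, on the plus strand, chr7:4460447-4460746 for the first of 3 listed starts of Eps8l1. Those of Cacng6 and Arhgap33os, also on the plus strand, are chr7:3424412-3424711 and chr7:30514872-30515171. The Cacng6 window begins above the GENCODE start of that gene, 3424195, and does not hold it. Capitals mark the TATAAA motif, the CCAAT box or the GGGCGG box on either strand.
Oscar: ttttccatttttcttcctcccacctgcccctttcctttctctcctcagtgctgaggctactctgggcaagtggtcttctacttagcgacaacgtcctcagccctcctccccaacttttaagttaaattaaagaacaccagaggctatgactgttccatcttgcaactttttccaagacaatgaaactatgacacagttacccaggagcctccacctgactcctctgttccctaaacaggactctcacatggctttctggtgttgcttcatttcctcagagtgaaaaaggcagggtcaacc
Eps8l1: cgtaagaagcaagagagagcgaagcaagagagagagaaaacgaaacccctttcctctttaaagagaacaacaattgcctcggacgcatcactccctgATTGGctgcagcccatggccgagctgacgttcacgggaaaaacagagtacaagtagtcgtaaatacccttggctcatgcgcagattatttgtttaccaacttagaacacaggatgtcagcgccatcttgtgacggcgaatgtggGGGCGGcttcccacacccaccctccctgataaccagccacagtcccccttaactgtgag
Cacng6: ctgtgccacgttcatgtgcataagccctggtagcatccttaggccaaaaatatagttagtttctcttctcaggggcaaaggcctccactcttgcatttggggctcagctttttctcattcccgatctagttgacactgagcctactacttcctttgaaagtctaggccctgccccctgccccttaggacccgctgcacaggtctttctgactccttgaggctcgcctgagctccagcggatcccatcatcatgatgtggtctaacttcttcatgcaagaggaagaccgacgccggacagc
Arhgap33os: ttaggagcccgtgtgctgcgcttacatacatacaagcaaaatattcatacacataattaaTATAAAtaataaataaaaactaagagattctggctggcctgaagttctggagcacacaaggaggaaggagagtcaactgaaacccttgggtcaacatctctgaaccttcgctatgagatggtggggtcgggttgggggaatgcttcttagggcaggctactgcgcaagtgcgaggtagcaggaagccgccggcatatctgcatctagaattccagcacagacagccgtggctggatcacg

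The TATAAA motif occurred once in the Arhgap33os window, and the CCAAT box and the GGGCGG box once each in that of Eps8l1. None of the 3 motifs occurred in the windows of Oscar and Cacng6. Among all 32851 windows, 13.6% held the TATAAA motif, 37.4% the CCAAT box and 35.7% the GGGCGG box. G and C made up 47.3% of the Oscar window, 51.3% of that of Eps8l1, 52.7% of that of Cacng6 and 48.0% of that of Arhgap33os, beside a median of 52.7% over all windows.

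The exons of Gm15494 and Eps8l1 share 59 bases, chr7:4471227-4471285, which is 10.6% of the 555 exonic bases of Gm15494 and 0.977% of the 6036 of Eps8l1. They are shown on the minus strand because a read from these bases fits both genes unless its strand is used.
Gm15494: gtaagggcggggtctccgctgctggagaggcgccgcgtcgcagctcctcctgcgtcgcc

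Whether the counting used strand is not given in the sources used here, so counts of this antisense pair are uncertain to that extent. Gm15494 was lower in hAPOE4 mice and Eps8l1 higher. Gm15494 also ends 47 bases from Rdh13, a gene of the same strand. Arhgap33os shares no exonic base with Arhgap33, from which 32 bases separate it.

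Levels are given as CPM, the count scaled to the library's total after TMM scaling. Oscar encodes the osteoclast-associated receptor, a collagen-binding immunoglobulin-like receptor that signals through the Fc receptor gamma chain. In hAPOE3 males its levels were 0.187, 0.369, 0.192, 0.320 and 0.203 CPM, and in hAPOE4 males 3.09, 4.08, 2.25, 2.62 and 3.97 CPM. In hAPOE3 females they were 0.170, 0.252, 0.343, 0.392 and 0.294 CPM, and in hAPOE4 females 2.73, 2.61, 3.01, 2.81 and 3.49 CPM. Each hAPOE4 mouse was above each hAPOE3 mouse, and the nearest mice of the 2 genotypes were 5.75-fold apart. The log2 fold change was 3.64 ± 0.24 (SE, n = 5 and 5) in males and 3.33 ± 0.24 in females. Underlying counts were 7 to 16 in hAPOE3 and 110 to 163 in hAPOE4 mice.

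Eps8l1 encodes a relative of the EPS8 adaptor, which links receptor tyrosine kinases to actin. In hAPOE3 males its levels were 1.29, 2.66, 1.27, 1.30 and 2.33 CPM, and in hAPOE4 males 15.6, 14.3, 8.97, 10.7 and 12.6 CPM. In hAPOE3 females they were 1.67, 1.79, 2.28, 1.25 and 1.53 CPM, and in hAPOE4 females 18.8, 11.7, 15.8, 23.8 and 13.3 CPM. The genotypes did not overlap, and the nearest mice were 3.37-fold apart. The log2 fold change was 2.81 ± 0.25 in males and 3.29 ± 0.25 in females. From the deposited normalized counts the log2 ratio of group means was smaller, 2.26 in males and 2.29 in females.

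Cacng6 encodes a gamma subunit of voltage-dependent calcium channels, from the family that also holds auxiliary subunits of AMPA receptors. In hAPOE3 males its levels were 2.84, 1.87, 2.07, 2.09 and 1.26 CPM, and in hAPOE4 males 0.905, 0.551, 0.342, 0.906 and 0.950 CPM. In hAPOE3 females they were 1.53, 2.19, 1.60, 2.74 and 2.46 CPM, and in hAPOE4 females 0.423, 0.840, 0.494, 0.680 and 0.932 CPM. Each hAPOE4 mouse was below each hAPOE3 mouse, but the nearest mice were only 1.32-fold apart. The log2 fold change was -1.47 ± 0.29 in males and -1.64 ± 0.29 in females, the smallest of the 5 genes in each sex. In males it was -1.38 without S175 and -1.14 with the mean log2 CPM of oocyte genes as a covariate, which nearly coincides with the hAPOE4 male group.

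Gm15494, the antisense neighbour of Eps8l1, is annotated as non-coding RNA. In hAPOE3 males its levels were 2.17, 2.98, 1.63, 2.09 and 2.23 CPM, and in hAPOE4 males 0.772, 0.376, 0.583, 0.310 and 0.536 CPM. In hAPOE3 females they were 2.84, 2.01, 3.37, 2.60 and 2.48 CPM, and in hAPOE4 females 0.423, 0.388, 0.258, 0.539 and 0.502 CPM. The genotypes did not overlap, and the nearest mice were 2.12-fold apart. The log2 fold change was -2.09 ± 0.24 in males and -2.65 ± 0.24 in females.

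Arhgap33os is an antisense transcript beside Arhgap33, which encodes a protein with a sorting nexin domain. In hAPOE3 males its levels were 0.0803, 0.105, 0.0240, 0.171 and 0.203 CPM, and in hAPOE4 males 1.01, 1.08, 1.05, 0.691 and 1.39 CPM. In hAPOE3 females they were 0.267, 0.101, 0.343, 0.147 and 0.0630 CPM, and in hAPOE4 females 1.02, 0.754, 0.408, 1.03 and 1.15 CPM. The genotypes did not overlap, but these are few reads, 1 to 12 counts in hAPOE3 and 19 to 57 in hAPOE4 mice, and the nearest mice were 1.19-fold apart. The log2 fold change was 3.08 ± 0.43 in males and 2.26 ± 0.41 in females. Arhgap33 itself was at 117 ± 15.2 CPM (SD, n = 5) in males with hAPOE3 and 135 ± 35.4 with hAPOE4, and in females at 122 ± 15.8 and 134 ± 15.8, and did not pass the test in either sex (edgeR, adjusted p = 0.657 in males and 0.834 in females).

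**Figure D1:**
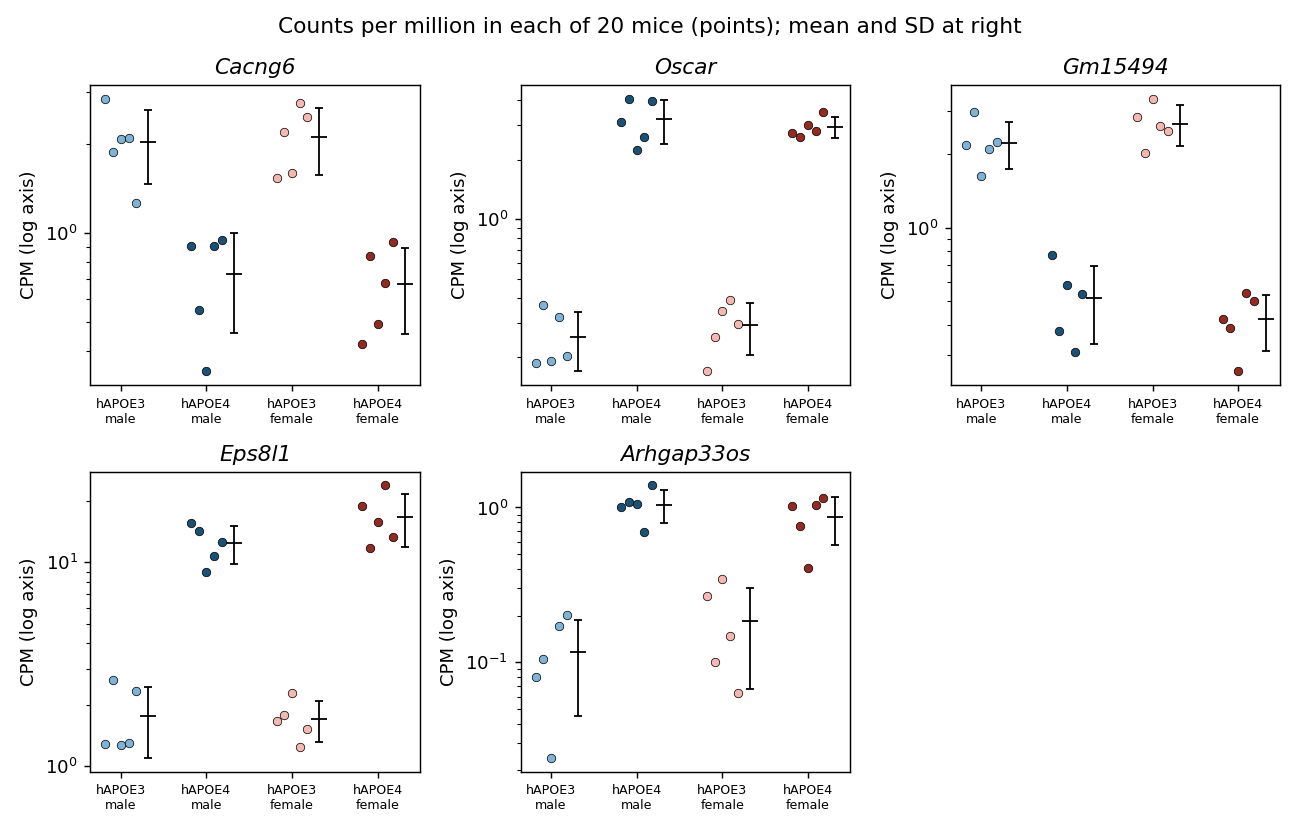
CPM (log axis) of the 5 genes in each of the 20 mice, with the mean and SD of each group of 5 at the right of its points. Within each gene the hAPOE3 and hAPOE4 points do not overlap in either sex, and Cacng6 and Arhgap33os have the narrowest gaps, 1.32-fold and 1.19-fold.

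Over all genes tested, 0.621% passed an adjusted p of 0.05 between hAPOE4 and hAPOE3 in males, 0.667% in females and 0.212% in both sexes in the same direction. Groups of 5 that did not overlap were found for 1.44% of the genes in males and 3.27% in females. The 5 genes were selected on this contrast, so nothing is read from their share.

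Scaled to the longest annotated transcript, the order of levels differed between the genotypes. In hAPOE3 males Gm15494 was highest at 4.92 ± 1.07 CPM per kb (SD, n = 5), followed by Cacng6 at 1.02 ± 0.287, Eps8l1 at 0.457 ± 0.174, Oscar at 0.139 ± 0.0461 and Arhgap33os at 0.0441 ± 0.0270. In hAPOE4 males Eps8l1 was highest at 3.22 ± 0.691 CPM per kb, followed by Oscar at 1.75 ± 0.443, Gm15494 at 1.14 ± 0.404, Arhgap33os at 0.394 ± 0.0936 and Cacng6 at 0.370 ± 0.137. The last 2 of these differed by less than their SD. The order was the same in females except for the last 2 hAPOE4 places, with Cacng6 at 0.341 ± 0.110 and Arhgap33os at 0.329 ± 0.112.

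Differences between the sexes were tested. The selection asked for the same direction of the genotype difference in males and in females. This favours genes with a small interaction, so no conclusion is drawn from the interaction test. None of the 5 genes passed the test between females and males in hAPOE3 mice, in hAPOE4 mice or for the interaction of sex and APOE (edgeR, lowest adjusted p = 0.809, 0.934 and 1.00), beside 0.0414%, 0.437% and 0.184% of all genes. At an unadjusted p of 0.05 the count was also 0 in each, and DESeq2 called 0. The largest sex difference in hAPOE3 mice was that of Arhgap33os, a log2 fold change of 0.56 ± 0.48 (female against male), and in hAPOE4 mice that of Eps8l1, 0.42 ± 0.23. The interaction terms ran from -0.82 ± 0.60 for Arhgap33os to 0.48 ± 0.34 for Eps8l1. These errors leave room for sex differences of the size of the estimates.

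**Figure D2:**
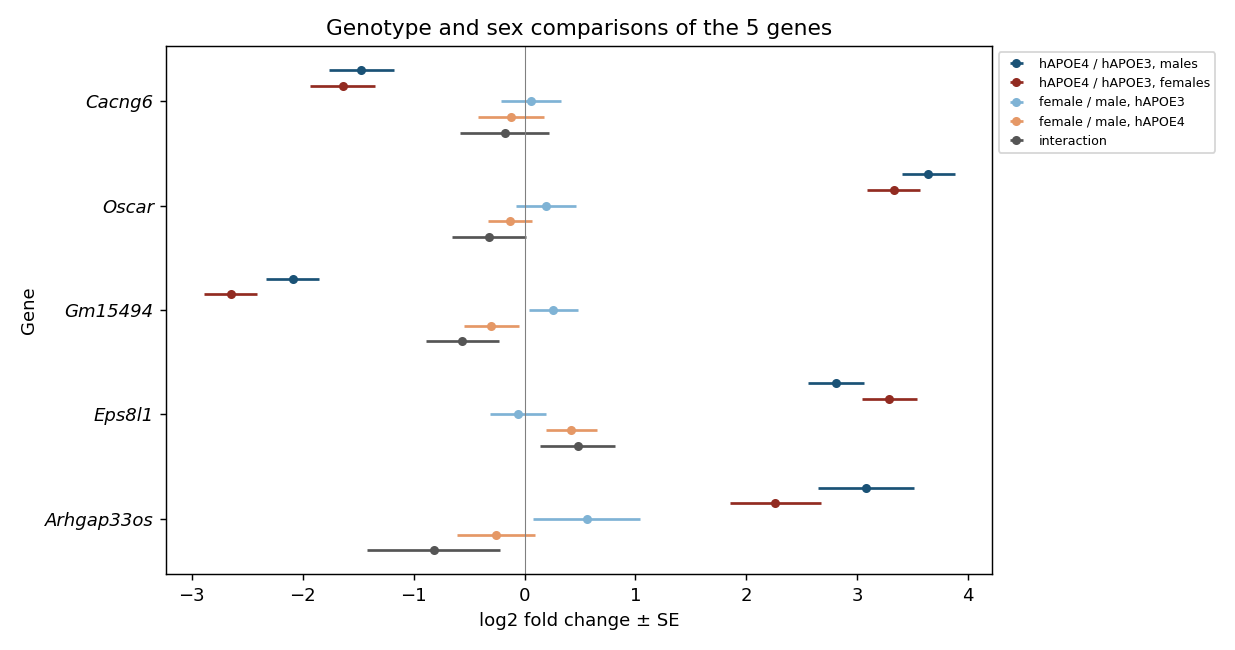
Log2 fold changes with SE of the 5 genes for the genotype comparisons in males and females, the sex comparisons in hAPOE3 and hAPOE4 mice, and the interaction. The genotype estimates lie at 2.26 or above for Oscar, Eps8l1 and Arhgap33os and at -1.47 or below for Cacng6 and Gm15494, while the sex estimates lie between -0.30 and 0.56.

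Apoe itself was at 65.5 ± 11.8 CPM (SD, n = 5) in males with hAPOE3 and 78.7 ± 16.3 with hAPOE4, and in females at 53.3 ± 13.1 and 63.2 ± 7.13, and did not pass the test (edgeR, adjusted p = 0.614 in males and 0.678 in females). Reads were assigned to mouse transcripts and the coding sequence is human in all groups, so this value checks no genotype label. Of 20 listed genes of the Apoe cluster 18 were tested, and 0 passed in either sex with edgeR or DESeq2 (0 in males and 1 in females at an unadjusted p under 0.05), with a median log2 fold change of -0.032 in males and 0.096 in females beside 0.002 and 0.001 over all genes.

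Within 20 Mb of the Apoe start, 581 other chromosome 7 genes were tested. Of these, 13 passed in males, 10 higher and 3 lower in hAPOE4 mice, which is 2.24% beside 0.621% of all genes (edgeR). In females 12 passed, 6 higher and 6 lower, which is 2.07% beside 0.667%. The male count changed with the libraries, from 8 without S175 to 23 without S174 or S166. The number of genes in the window that passed the expression filter changed too, to 588 without S175 and 598 without S174 or S166. Within 5 Mb of Apoe the counts were 3 of 149 genes in males, which is 2.01% beside 0.621% of all genes, and 0 in females. These 3 were Obox5, Nlrp9b and Nlrp5, described below with the oocyte genes. At an unadjusted p under 0.05 the count was 9 in each sex, and DESeq2 called 3 and 0. Beyond 20 Mb 4 and 8 of 1172 chromosome 7 genes passed, which is 0.341% in males and 0.683% in females.

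Of the 581 genes 7 passed in both sexes in the same direction. Beyond 20 Mb 0 of 1172 chromosome 7 genes did so (edgeR), beside 32 at an unadjusted p of 0.05 in both sexes and 2 with DESeq2. Tmc4, a transmembrane channel-like gene, was higher in hAPOE4 mice with a log2 fold change of 1.05 ± 0.22 in males and 0.96 ± 0.22 in females. Ptprh, a receptor tyrosine phosphatase, was higher by 2.45 ± 0.39 and 2.82 ± 0.41. Gm15510 was higher by 1.90 ± 0.23 and 1.78 ± 0.23.
Kirrel2, an adhesion molecule of the nephrin family, was higher by 1.27 ± 0.16 and 1.12 ± 0.16. Lower levels were found for Rdh13, a mitochondrial retinol dehydrogenase (-0.98 ± 0.15 and -1.01 ± 0.15), for the kinase gene Sbk3 (-1.18 ± 0.19 and -1.13 ± 0.19) and for Haus5, a subunit of the augmin complex of the spindle (-1.01 ± 0.16 and -1.03 ± 0.16). The weakest of these calls was Tmc4 (edgeR, adjusted p = 0.0207 in males and 0.0475 in females). It was lost in males without S154, S156, S175 or S178, with an adjusted p of up to 0.0689. In females it was lost without any 1 of the 10 females, S156, S174 or S175, with up to 0.133.

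**Figure D3:**
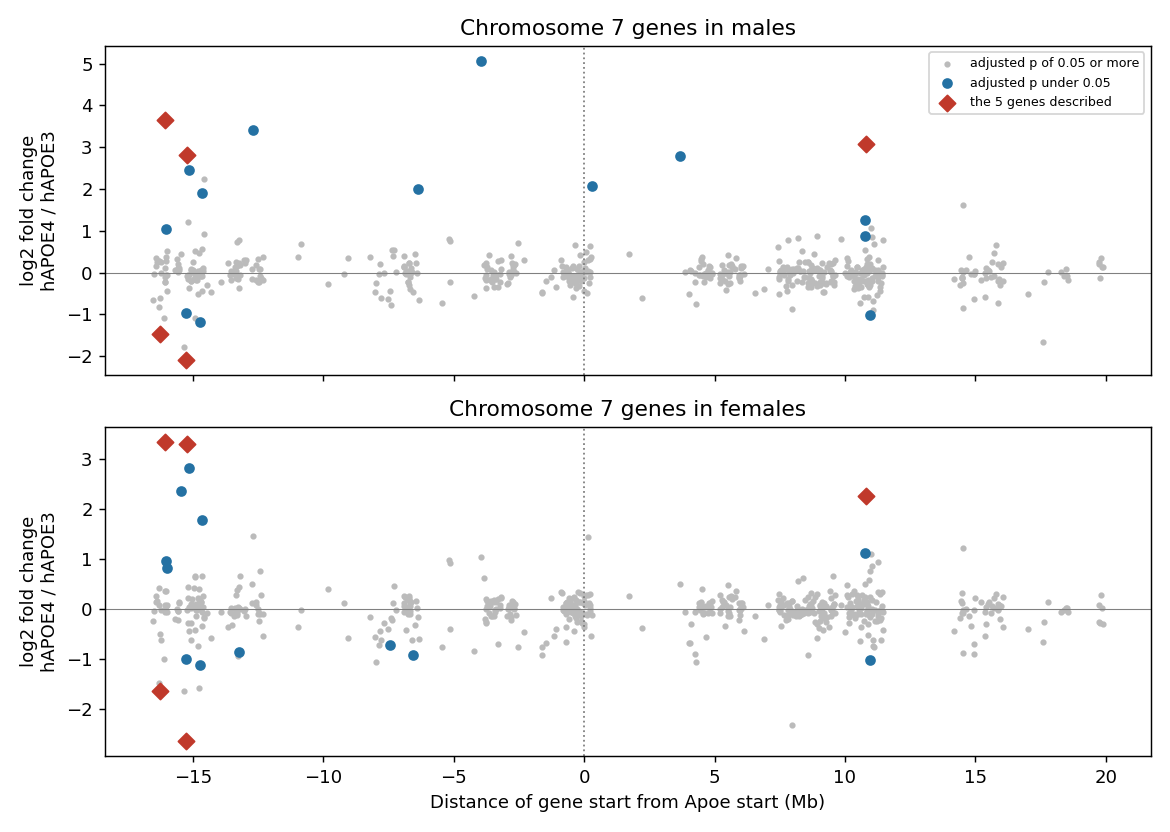
Log2 fold change of hAPOE4 against hAPOE3 for tested chromosome 7 genes, by the distance of the gene start from the Apoe start in Mb, in males (top) and females (bottom). Diamonds are the 5 genes described and blue points the other genes past the threshold, 13 in males and 12 in females. The diamonds sit 15.2 to 16.3 Mb below Apoe and 10.8 Mb above it.

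These 7 genes, called with edgeR, and the 5 selected genes lay in 2 short stretches. The first, from Cacng6 to Gm15510, spans 1.64 Mb and holds 4 of the selected genes and 61 other tested genes, of which 5 passed in both sexes. The second, from Kirrel2 to Haus5, spans 0.217 Mb and holds Arhgap33os and 19 other tested genes, of which 2 passed in both sexes. Between the stretches 414 genes were tested, Apoe included, and 0 passed in both sexes with edgeR or DESeq2, beside 12 at an unadjusted p of 0.05 in both. DESeq2 called 7 of the other genes of the first stretch and 2 of those of the second in both sexes. Within 20 Mb of Apoe it also called Gapdhs, Gm26762 and Pgam1-ps2 in both sexes. Gapdhs and Gm26762 lie above the second stretch, and Pgam1-ps2 was not among the 581 genes. The calls of DESeq2 were thus not limited to the 2 stretches. The ends of the stretches were set by the genes called with edgeR, so their shares are a description.

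Some genes directly beside the 5 genes differed little between the genotypes. Ndufa3, a complex I subunit 1216 bases from Oscar, had log2 fold changes of -0.23 ± 0.16 and -0.03 ± 0.16 in males and females. Ppp1r12c, a myosin phosphatase regulator 1033 bases from Eps8l1, had -0.09 ± 0.10 and -0.02 ± 0.10. Neither passed the test (edgeR, lowest adjusted p = 0.648 and 0.784).
The long non-coding RNA Gm44920, 5663 bases from Oscar on its other side, had -1.09 ± 0.37 and -1.0 ± 0.37 without passing (edgeR, adjusted p = 0.327 and 0.312). Tfpt, next to Ndufa3, had -0.24 ± 0.16 and 0.06 ± 0.16. Tarm1, between Cacng6 and Oscar, had 0.24 ± 0.41 and -0.64 ± 0.40. Neither of the latter passed.
Tnnt1, a slow muscle troponin gene beyond Ppp1r12c, had 1.20 ± 0.92 and 0.20 ± 1.04 without passing.
On the other side of Gm15494, Rdh13 was lower in hAPOE4 mice, as Gm15494 was. Gp6, the platelet collagen receptor, had -1.79 ± 0.44 and -1.65 ± 0.43 without passing (edgeR, adjusted p = 0.0781 and 0.0888), but DESeq2 called it in both sexes. Beside Cacng6, 3300002P13Rik had -0.61 ± 0.23 and -0.51 ± 0.23, and beside Arhgap33os the proline dehydrogenase gene Prodh2 had 0.12 ± 0.21 and -0.10 ± 0.21. These 2 genes did not pass. Gm44151 and Gm35037, the next genes around Cacng6, had -0.83 ± 0.48 and -1.49 ± 0.48, and -0.02 ± 0.38 and -0.03 ± 0.38. Nphs1os and Proser3, the next genes around Arhgap33os, had 0.53 ± 0.42 and 0.24 ± 0.44, and 0.33 ± 0.13 and 0.10 ± 0.13. These 4 did not pass (edgeR, lowest adjusted p = 0.203).

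**Figure D4:**
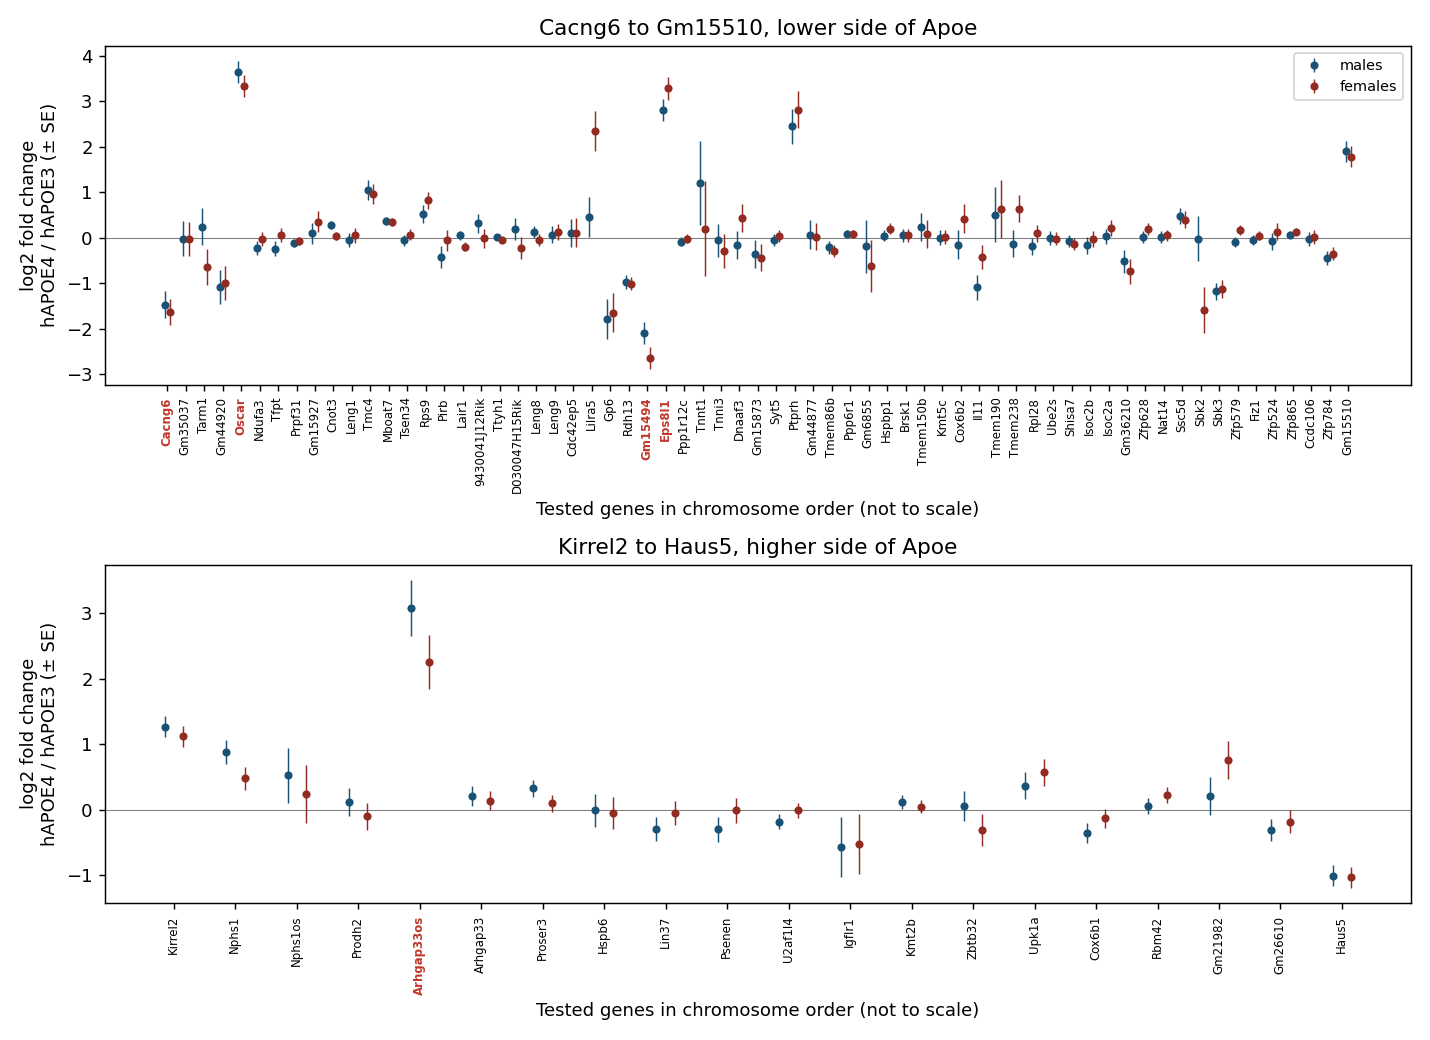
Log2 fold change with SE of hAPOE4 against hAPOE3 for each tested gene of the 2 stretches, in chromosome order and not to scale, in males and females. The 5 genes described are named in red. Genes at 0 stand beside genes with large differences, as Ppp1r12c does beside Eps8l1.

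Genes called in 1 sex only were also found in the window, 6 in males and 5 in females, but the interaction did not pass for these genes (edgeR). Those of the males were Aurkc, Pla2g4c, Obox5, Nlrp9b, Nlrp5 and Nphs1. Of these, at least Obox5, Nlrp9b and Nlrp5 are known as oocyte genes, and whether the others are was not examined. The summed level of 8 oocyte genes was 46.9 to 93.4 CPM in hAPOE4 males S175 to S178, 1.77 CPM in S174 and at most 3.99 CPM in the other 15 mice. A covariate, chosen after seeing the data, was the mean log2 CPM of the 5 genes of that list that passed the expression filter. With it 3 of the 581 genes passed in males (Kirrel2, Sbk3 and Haus5), which is 0.516% beside 0.0690% of all genes. In females 12 passed. The list was high only in S175 to S178, so the covariate nearly coincides with the hAPOE4 male group. In males its part can hardly be told apart from that of the genotype. The list includes Nlrp5, itself among the 581 genes. S174, at 1.77 CPM, had levels of Oscar, Eps8l1, Cacng6 and Arhgap33os within the range of the other hAPOE4 mice, and the highest level of Gm15494 among them, 0.772 CPM.

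Markers of other cells were compared because fewer cells of a type and less RNA per cell cannot be told apart in bulk tissue. The sum of 8 hippocampal neuron markers ran from 581 to 1253 CPM, and that of 6 microglial markers from 288 to 366 CPM, with overlapping ranges in all groups. The sum of 6 choroid plexus markers ran from 68.8 to 3834 CPM in hAPOE3 mice and from 93.9 to 6353 CPM in hAPOE4 mice. S146 (68.8 CPM) and S148 (3834 CPM) had 0.343 and 0.294 CPM of Oscar, and S168 (93.9 CPM) and S166 (6353 CPM) had 3.49 and 3.01 CPM.
The median sum of the choroid plexus markers was higher in hAPOE4 than in hAPOE3 mice, at 4526 against 2645 CPM in females, and in males hAPOE3 mice had a median of 121 CPM and hAPOE4 mice ran from 108 to 2782 CPM.

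The same order of medians was found for 6 border macrophage markers. They were 10.5 CPM in hAPOE4 and 7.36 CPM in hAPOE3 males, and 17.5 and 8.74 CPM in females. The ranges of these markers overlapped, 7.14 to 14.5 and 4.80 to 9.56 CPM in males and 6.48 to 28.8 and 4.73 to 20.2 CPM in females. The 6 epithelial markers had medians of 6.24 CPM in hAPOE4 and 1.61 CPM in hAPOE3 males and of 14.4 and 8.01 CPM in females, with overlapping ranges of 2.14 to 12.3 and 1.58 to 9.60 CPM in males and 2.44 to 19.9 and 1.57 to 11.7 CPM in females. These medians moved in the direction of Oscar, Eps8l1 and Arhgap33os, and their part in those differences was not tested. Skeletal muscle markers ran from 4.02 to 13.4 CPM and neutrophil markers from 0.0234 to 1.56 CPM. Of the 34 tested markers of these 7 cell types 0 passed between the genotypes in either sex with edgeR or DESeq2, and 1 in males and 3 in females had an unadjusted p under 0.05. All 6 neutrophil markers fell below the expression filter.

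The lists of partners were counted with the selected genes left out. Of the 16 other tested genes of AMPA receptors and their auxiliary subunits 0 passed in either sex (edgeR), with a median log2 fold change of 0.055 in males and -0.095 in females, and 1 and 0 had an unadjusted p under 0.05. Cacng8, the main hippocampal auxiliary subunit, had 0.27 ± 0.23 and 0.42 ± 0.23. Of the 13 other tested genes of the EPS8 family and its actin partners 0 passed, with medians of -0.015 and 0.013 and 1 and 0 at an unadjusted p under 0.05, and Eps8 itself had 0.24 ± 0.14 and 0.12 ± 0.14.
Of the 11 other tested genes of OSCAR and ITAM signalling 0 passed, with medians of -0.106 and -0.018 and 3 and 1 at an unadjusted p under 0.05. Fcer1g, which encodes the gamma chain that Oscar signals through, had -0.48 ± 0.14 and -0.20 ± 0.14 without passing (edgeR, adjusted p = 0.212 and 0.714). Of 7 genes around ARHGAP33 0 passed, with medians of 0.129 and 0.113 and 1 in each sex at an unadjusted p under 0.05. DESeq2 also called 0 in each of these lists. The medians over all genes were 0.002 and 0.001.

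A further readout came from the deposited normalized counts. Each was the count divided by a factor that differed between genes within a mouse, and in the study's software such factors follow the mean length of the transcripts that a gene's reads were assigned to. Relative to the median gene of the mouse, the factor of genes with 1 annotated transcript varied little (median SD of 0.00221 on the log2 scale, 2241 genes) and that of genes with several varied more (0.0665, 13587 genes). Eps8l1 has 14 annotated transcripts of 249 to 3868 bases.

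The log2 factor of Eps8l1 was -0.61, -0.60, -0.21, 0.18 and -0.13 in hAPOE3 males and 0.19, 0.21, -0.00, -0.00 and 0.74 in hAPOE4 males. In hAPOE3 females it was -0.66, -0.61, -0.52, -0.03 and -0.43, and in hAPOE4 females 0.39, 0.26, 0.64, 0.72 and 0.48. The groups did not overlap in females and overlapped in males. The hAPOE4 mean was higher by 0.72 over both sexes, by 0.50 in males and by 0.95 in females, and among 16205 genes only 1 other had a shift at least as large. This comes from the same contrast as the selection and was not tested. The shift was -0.12 for Oscar, 0.11 for Gm15494, 0.01 for Cacng6 and 0.00 for Arhgap33os, which has 1 annotated transcript. Of the 16205 genes, 1898 had a shift over both sexes at least as large as that of Oscar and 2150 as that of Gm15494. For Cacng6 and Arhgap33os these counts were 9063 and 14618. The shift of Gm15494 was 0.18 in males, where the groups did not overlap, and 0.04 in females, where they did. The share of all genes without overlap in this factor is not given here, so nothing is read from the overlap. Between the sexes, which did not enter the selection in this readout, 0 of 8 differences passed (exact permutation tests, two-sided, n = 5 and 5, lowest p = 0.111, lowest adjusted p = 0.517). The smallest p that 5 against 5 mice allow is 0.00794, or 0.0635 after adjustment over 8 tests, so a single difference could not have passed. Oscar, Gm15494, Cacng6 and Arhgap33os have fewer than 20 counts in some mice, and their factors rest on few reads.

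**Figure D5:**
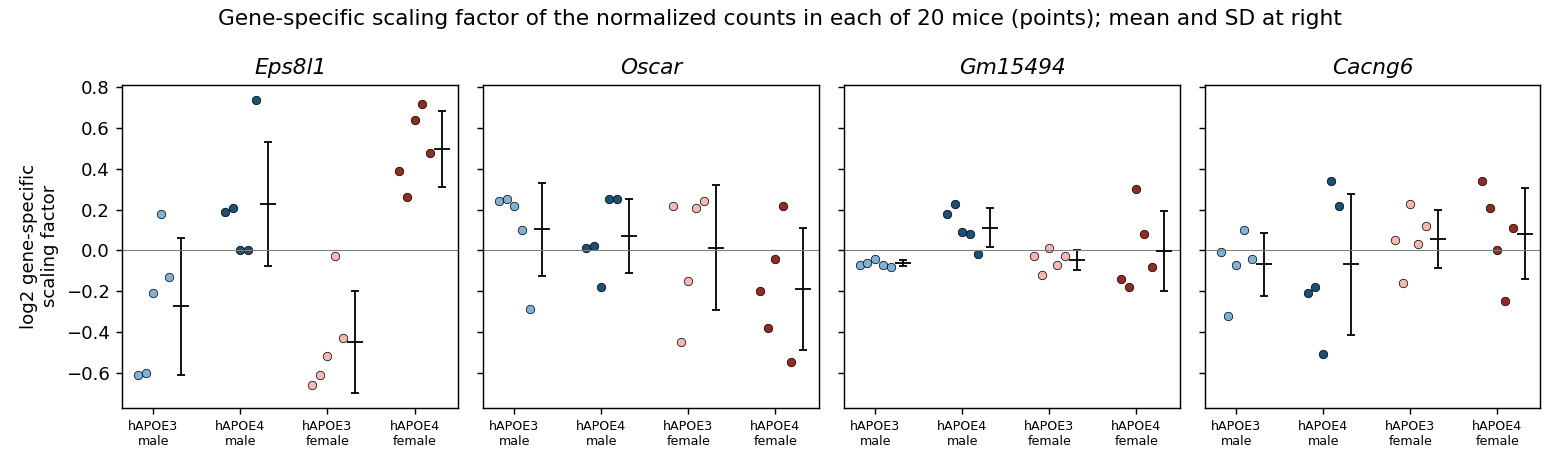
Log2 gene-specific factor of the deposited normalized counts, relative to the median gene of each mouse, for the 4 genes with more than 1 annotated transcript, with the mean and SD of each group of 5 at the right of its points. Eps8l1 is at 0.50 ± 0.18 in hAPOE4 females and -0.45 ± 0.25 in hAPOE3 females, and the groups of Oscar and Cacng6 overlap. Those of Gm15494 overlap in females but not in males, at -0.08 to -0.04 in hAPOE3 and -0.02 to 0.23 in hAPOE4 males.

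The antisense pairs were compared across mice within a genotype, over 10 mice each and 4 relations. Gm15494 and Eps8l1 had a Pearson r of 0.57 and a Spearman rank correlation of 0.45 in hAPOE3 mice and of 0.06 and 0.02 in hAPOE4 mice (permutation tests, adjusted p = 0.173 and 0.255, and 0.863 and 0.972). Arhgap33os and Arhgap33 had an r of 0.71 and a rank correlation of 0.67 in hAPOE3 mice (permutation p = 0.0212 and 0.0389, adjusted p = 0.0849 and 0.156) and of 0.37 and 0.54 in hAPOE4 mice (adjusted p = 0.356 and 0.229). None of the 4 relations passed the correction. Without the 2 mice farthest from the median the r were 0.35, 0.12, 0.43 and 0.48.

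The genes with the most similar pattern over the 20 mice were mostly on other chromosomes. The points fall into the 2 genotypes, so the correlations mainly restate the genotype difference and are given as a description. For Oscar they were Wdfy1 on chromosome 1 (r = -0.978), Gm5815 on chromosome 17 (0.970) and Erdr1, for which no chromosome was available (-0.962). For Eps8l1 and Gm15494 they were Gm5815 (0.976 and -0.950), Wdfy1 (-0.961 and 0.950) and Serpina3n on chromosome 12 (0.951 and -0.948).
For Cacng6 they were Gm45062 on chromosome 6 (0.906), Gm5815 (-0.891) and Lrmda on chromosome 14 (-0.891). For Arhgap33os they were Ica1 and Umad1 on chromosome 6 (-0.938 and -0.900) and Gm15510 on chromosome 7 (0.895). Of the 46 genes that passed in both sexes in the same direction, the selected genes included, 8 were on chromosome 6.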

How the data were processed

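Hippocampal polyA RNA of 20 mice was sequenced in pairs. The authors assigned reads to mouse cDNA with Salmon 0.91 and summarised them with tximport as estimated counts per gene, which were deposited as whole numbers and not normalized. A further deposited table has the authors' DESeq2-normalized counts (a signal). Columns left unmatched numbered 0. The test was that of edgeR 4.0.16 under R 4.3.3 (with TMM, filterByExpr by group, glmQLFit and glmQLFTest with one mean per group over all 20 mice, Benjamini-Hochberg, threshold 0.05). SE is the fold change over the root of F, and log2 CPM used a prior count of 2. Symbols of 20869 of 21724 tested genes matched GENCODE M21. The factor readout was set against the 16205 genes with at least 20 counts in each mouse, and the 5 genes were read whatever their counts. No pair of libraries, of 190, agreed within sampling noise (lowest chi-square per degree of freedom 9.27). The p-values measure the spread between these mice.

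The 5 genes and the gene lists were chosen with earlier results of these data known. Named genes were the 5 genes, Apoe, and the overlapping and nearest 2 tested genes on each side of each of the 5. For each of the 5, the 3 most correlated genes other than the 5 were named. Chromosome 7 genes within 20 Mb called in both sexes were named too, and list members past the threshold, or of high expression where none was. The remaining genes named, such as those called in 1 sex, were chosen after their values were seen. The code was tested on simulated data. Alternatives were the DESeq2 1.42.0 Wald test, its size factors (RLE), no filter, only the groups compared, other windows, each mouse left out, the deposited normalized counts and an oocyte covariate.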

Additional observations from a re-analysis of the deposited data

Results flagged for a closer look

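Among 72 groups of 5 mice checked for a mouse far from the others, 2 stood out, and chance gives about 1 in 20 groups. Sbk3 was at 1.39 CPM in hAPOE4 female S168, and the nearest of the other 4 mice was at 1.84 CPM. The log2 factor of Oscar was -0.29 in hAPOE3 male S158, and the nearest of the others was at 0.10. No cause was tested for either value.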

How the results depend on the processing

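No paired analysis was possible because the labels give no replicate numbers that groups share. The count of other chromosome 7 genes past the threshold in males, 13, was 26 with the DESeq2 Wald test, 20 without the filter, 4 with only the 2 groups compared, 3 with the oocyte covariate, 3 within 5 Mb and 4 within 10 Mb. It ran from 8 to 23 with 1 mouse left out, and moved by over 1.5 times for 14 of the 20: each female, S155, S158, S174 and S175. In females, 12, it was 20 with DESeq2, 0 within 5 Mb, 2 within 10 Mb, 20 over the whole chromosome and 8 to 13 with 1 mouse left out. The smaller windows hold fewer genes. With a mouse left out more genes passed the expression filter, such as 596 in the window without S144, beside 581 in the main fit. The male calls added without S144 were Gm15541, Nlrp4a, Nlrp4b, Nlrp9c, Obox1, Obox2, Obox7 and Rfpl4. All of these but Gm15541 had fallen below the filter in the main fit. Otherwise the cause was not tested. The 5 genes gave 0 calls between the sexes and for the interaction under every alternative run. Their genotype differences kept their direction in all 260 alternative values, and 257 moved by less than the spread between mice. The exceptions were Eps8l1 with the deposited normalized counts (2.26 in males and 2.29 in females) and Gm15494 in males with the oocyte covariate (-1.60). In males Gm15494 did not reach an adjusted p of 0.05 with that covariate (edgeR, adjusted p = 0.0651). Cacng6 did not reach it in males without S175 (edgeR, adjusted p = 0.0517), with only the 2 groups compared (0.0945) or with the covariate (0.579). The 5 genes were selected on this contrast, so these values show where a call was lost and are no test of the genes. In males the covariate nearly coincides with the hAPOE4 group.

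Sex differences near 0 turned sign in 10 of 379 values. With the deposited normalized counts these were Oscar in hAPOE4 (0.18), Eps8l1 in hAPOE3 (0.11) and Cacng6 in hAPOE3 mice (-0.06). With 1 mouse left out they were Eps8l1 in hAPOE3 (-0.18 to 0.13 over the 20 fits, with 0.03, 0.13 and 0.06 above 0), Cacng6 in hAPOE3 (-0.07 to 0.21, with -0.05, -0.00 and -0.07 below 0) and Cacng6 in hAPOE4 mice (-0.30 to 0.01). Of the 7 other genes called in both sexes, calls were lost in 25 of 350 alternative values, 20 of them of Tmc4. In males, Rdh13, Ptprh and Gm15510 were lost with the oocyte covariate (edgeR, adjusted p = 0.105, 0.0844 and 0.0654) and Sbk3 and Haus5 with only the 2 groups compared (0.0524 and 0.0635). Arhgap33os had 1 to 12 counts in hAPOE3 mice, so small changes of its level there were not detectable.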
